A study of Homo sapiens with 3 samples.

Results

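Regions marked as lying just past the end of a gene were examined for their content of histone H3 variants in MDA-MB-231 LM2 cells. A merged region was taken as downstream when it held no promoter, was assigned to at least 1 gene, lay inside no assigned gene and was marked downstream of at least 1. On chromosomes 1 to 22 and X, 2965 of 67965 merged regions (4.36%) met these terms, and the measured heights played no part in the choice. The words behind and past follow that mark, which for some genes differs from the RefSeq annotation. They covered 7.04 Mb, with lengths of 199 to 19999 bases and a median of 1799 bases. The other position classes were 284 regions upstream of genes, 37405 in gene bodies, 23465 at promoters and 3846 with no assigned gene.

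The libraries were 1 ChIP against H3.3, 1 ChIP against H3.1 together with H3.2, and 1 input DNA, all from LM2, a subline of the human breast cancer line MDA-MB-231 that was selected for spread to the lung. Per the labels, 30 µg of chromatin went into each ChIP, with 6 µg of the H3.3 antibody and 4 µg of the H3.1/H3.2 antibody, and no treatment or genotype was given. Headers of both ChIP columns also name a GFP hairpin (shGFP), which appears in none of the sample labels. With 1 library per antibody no p-value is given, and every interval covers counting error or the spread over regions, never the spread between cultures. Intervals are at the 95% level. The input was not analysed here, and how the ChIPs were scaled to each other is not stated, so each sign holds relative to that scaling.

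In human cells, H3.1 and H3.2 enter chromatin chiefly behind the replication fork, whereas H3.3 is laid down at any point of the cell cycle and replaces nucleosomes lost at active promoters, enhancers and transcribed genes. The stretch past a gene's end is where RNA polymerase II continues beyond the polyadenylation site before it is released, and it can also hold enhancers or the start of another transcript. Genes of the C2H2 zinc finger family stand in large clusters, many on chromosome 19, and their exons are known to carry H3K9me3 together with ATRX and H3.3 in several cell types.

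A small part of the downstream regions overlapped a window around a RefSeq transcription start, and 4 windows that lay wholly inside such regions are shown as examples of annotated starts in places the submitted table marks as past a gene. Windows of 250 bases before to 50 bases after RefSeq starts (GRCh38.p14) overlapped 44 of 2965 downstream regions (1.48%, exact interval 1.08 to 1.99), against 8 of 284 upstream regions (2.82%) and 81 of 3846 regions without a gene (2.11%). Some of these windows overlapped only in part, with the start itself outside the region. The 44 genes of the windows comprised 35 lncRNA genes and 9 protein-coding genes, of which 3 were in the submitted gene list of their region. Regions with such a window had a median H3.3 height of 10.9 and a median H3.1/H3.2 height of 3.86, and those without had medians of 8.82 for H3.3 against 4.21 for H3.1/H3.2. A CpG island lay in 47.7% of the regions with a window and in 10.0% of those without. Regions with a window were also longer, with a median of 3399 bases against 1799. The part of length in these contrasts was not tested. Calls were made in H3.3 alone for 36 of the 44, in both ChIPs for 7 and in H3.1/H3.2 alone for 1. The protein-coding windows printed here run 5′ to 3′, and capitals mark a GC box (GGGCGG or its complement CCGCCC) or an AP-1 motif (TGANTCA), searched on both strands with overlaps allowed.
A3GALT2, chr1:33321049-33321348, minus strand, in a region past PHC2: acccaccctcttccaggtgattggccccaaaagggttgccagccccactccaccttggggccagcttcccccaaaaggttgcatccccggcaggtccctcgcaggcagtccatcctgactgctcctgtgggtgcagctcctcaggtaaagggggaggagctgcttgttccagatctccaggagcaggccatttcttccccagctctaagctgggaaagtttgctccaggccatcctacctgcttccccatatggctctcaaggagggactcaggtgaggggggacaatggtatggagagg
VDAC1, chr5:134070962-134071261, minus strand: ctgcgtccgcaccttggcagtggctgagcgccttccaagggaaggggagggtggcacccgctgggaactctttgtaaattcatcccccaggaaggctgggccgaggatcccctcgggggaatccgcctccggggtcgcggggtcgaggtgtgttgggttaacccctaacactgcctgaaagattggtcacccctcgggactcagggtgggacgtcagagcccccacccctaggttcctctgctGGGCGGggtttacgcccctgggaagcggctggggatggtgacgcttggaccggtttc
USP54, chr10:73625592-73625891, minus strand, in a region past MYOZ1: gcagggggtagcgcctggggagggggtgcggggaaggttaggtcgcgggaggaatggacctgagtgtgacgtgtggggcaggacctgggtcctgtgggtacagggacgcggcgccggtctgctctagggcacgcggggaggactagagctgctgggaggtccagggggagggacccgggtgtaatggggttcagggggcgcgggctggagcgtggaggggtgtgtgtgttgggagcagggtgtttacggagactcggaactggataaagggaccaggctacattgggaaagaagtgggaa
ZNF525, chr19:53365455-53365754, plus strand, in a region past ZNF845: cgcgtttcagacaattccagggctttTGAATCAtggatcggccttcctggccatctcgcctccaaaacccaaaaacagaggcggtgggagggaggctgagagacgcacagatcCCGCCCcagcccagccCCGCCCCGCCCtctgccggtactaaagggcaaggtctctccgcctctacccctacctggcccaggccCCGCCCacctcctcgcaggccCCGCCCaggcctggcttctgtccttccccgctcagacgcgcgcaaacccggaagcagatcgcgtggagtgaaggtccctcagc

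The 4 windows differed in their letters and in their heights. The region around the A3GALT2 window, called in H3.3 alone, had heights of 9.20 for H3.3 against 1.91 for H3.1/H3.2, a 4.83-fold difference (3.08 to 7.53). Its window held 2 CG pairs and neither motif. The region around the VDAC1 window, whose gene encodes a channel of the outer mitochondrial membrane, had heights of 9.68 for H3.3 against 2.75 for H3.1/H3.2, and its window held 18 CG pairs and 1 GC box. The region around the USP54 window was called in both ChIPs, with heights of 10.8 for H3.3 against 9.71 for H3.1/H3.2. Its fold of 1.12 (0.893 to 1.39) included no difference. The region around the ZNF525 window had heights of 6.04 for H3.3 against 3.23 for H3.1/H3.2, and its window held 5 GC boxes and 1 AP-1 motif. Over 35116 RefSeq start windows of the same length, 45.0% held a GC box, 7.71% an AP-1 motif and 11.5% a TATA box (TATAAA or TTTATA), which none of the 4 held. The protein-coding windows of CCDC197 and ZGLP1 also lay wholly inside downstream regions and are not printed. Each held 1 TATA box, and that of ZGLP1 also 1 AP-1 motif. A match describes letters and not a bound site.

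Across the downstream regions, H3.3 stood above H3.1/H3.2 in most. The median H3.3 height, the mean pileup over a region, was 8.84 (8.73 to 9.0), and the median H3.1/H3.2 height was 4.19 (4.09 to 4.33). H3.3 was at least 2-fold higher in 1716 regions (57.9%), against 36.0% of all merged regions, and at least 2-fold lower in 299 regions (10.1%), against 22.4% of all merged regions. On the log2((H3.3 + 1)/(H3.1/H3.2 + 1)) scale the median was 1.03 (1.0 to 1.06), with quartiles at 0.30 and 1.44. Counting error left the fold above 1 in 2014 regions (67.9%, against 45.2% of all regions) and under 1 in 427 (14.4%, against 33.8%), and its interval included 1 in 524. About 309813 H3.3 tags and 165635 H3.1/H3.2 tags fell in the downstream regions, with medians of 66.7 H3.3 tags and 35.1 H3.1/H3.2 tags a region.

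The calls divided the downstream regions into separate clouds. Calls and heights come from the same libraries, so this separation is largely set by construction. Regions called in H3.3 alone numbered 2146 (72.4%, 70.7 to 74.0), regions called in H3.1/H3.2 alone 543 (18.3%) and regions called in both 276 (9.31%). Those called in H3.3 alone had median heights of 9.52 for H3.3 against 3.49 for H3.1/H3.2. Those that H3.1/H3.2 alone called had medians of 3.92 for H3.3 against 8.11 for H3.1/H3.2. Regions that both ChIPs called had a greater median length, 3199 bases, and their medians of 8.87 for H3.3 against 7.64 for H3.1/H3.2 gave a log2 ratio of 0.15 (0.06 to 0.21). A region enters the table once either ChIP is called, so low values in both libraries are missing by construction. No height above 0 lay below 1 in any merged region, which points to means taken over covered positions, so low heights may be overstated and large folds understated.

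**Figure D1:**
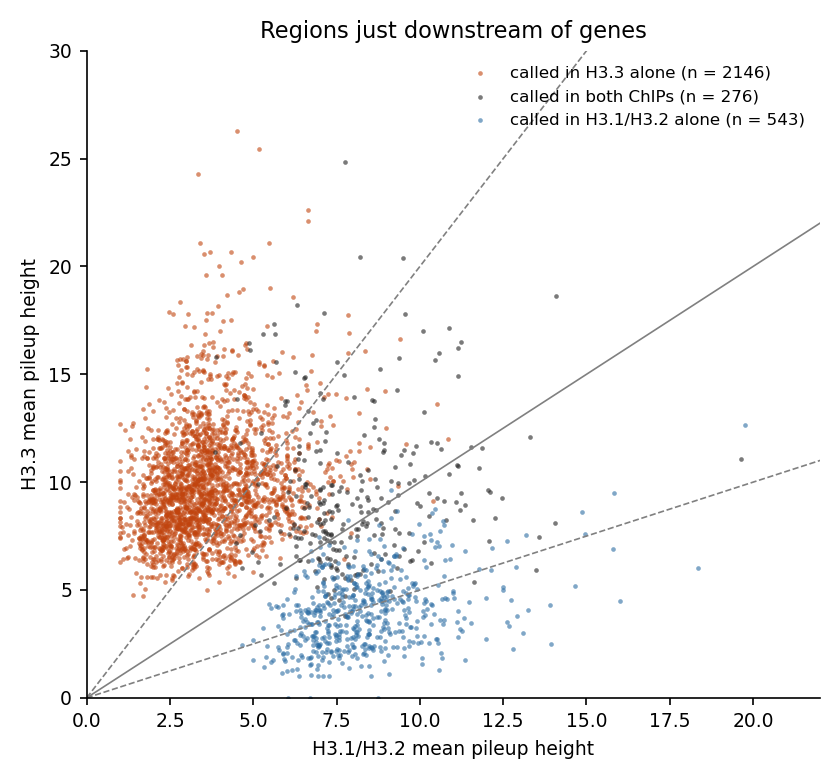
Mean pileup height of H3.3 (vertical axis) against H3.1/H3.2 (horizontal axis) in each of the 2965 downstream regions, coloured by call; the solid line marks equal heights and dashed lines a 2-fold difference. The 2146 regions called in H3.3 alone form a cloud around a median H3.3 height of 9.52, and the 543 called in H3.1/H3.2 alone a separate cloud below the solid line. Calls and heights come from the same libraries, which largely sets this separation.

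Downstream regions resembled intergenic regions more than gene body regions taken over all genes. Their median log2 ratio of 1.03 stood 1.51 (1.48 to 1.55) above that of all gene body regions, at -0.48. This went with both variants, since H3.3 was 2.90 height units higher and H3.1/H3.2 3.14 units lower than in gene bodies. In 1516 genes with regions in both places, the median log2 ratio was 0.73 downstream and -0.14 in the body. The median of the per-gene differences, which is another measure than a difference of medians, was 0.38. Upstream regions had a median log2 ratio of 1.33 and regions without a gene 1.31, so that downstream regions stood 0.30 below the first (-0.30, -0.36 to -0.22) and 0.28 below the second (-0.28, -0.31 to -0.24). Here the H3.3 heights were close and the H3.1/H3.2 heights differed more. The H3.3 median was 8.84 downstream, 9.29 upstream and 9.06 without a gene, whereas the H3.1/H3.2 median was 4.19 downstream, 3.28 upstream and 3.26 without a gene. The share called in H3.3 alone was 72.4% downstream, 89.4% upstream and 85.4% without a gene. Among regions called in both ChIPs the difference to upstream regions turned to 0.09 (-0.36 to 0.89), with 7 such regions upstream, and that to regions without a gene was -0.11 (-0.30 to 0.09).

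**Figure D2:**
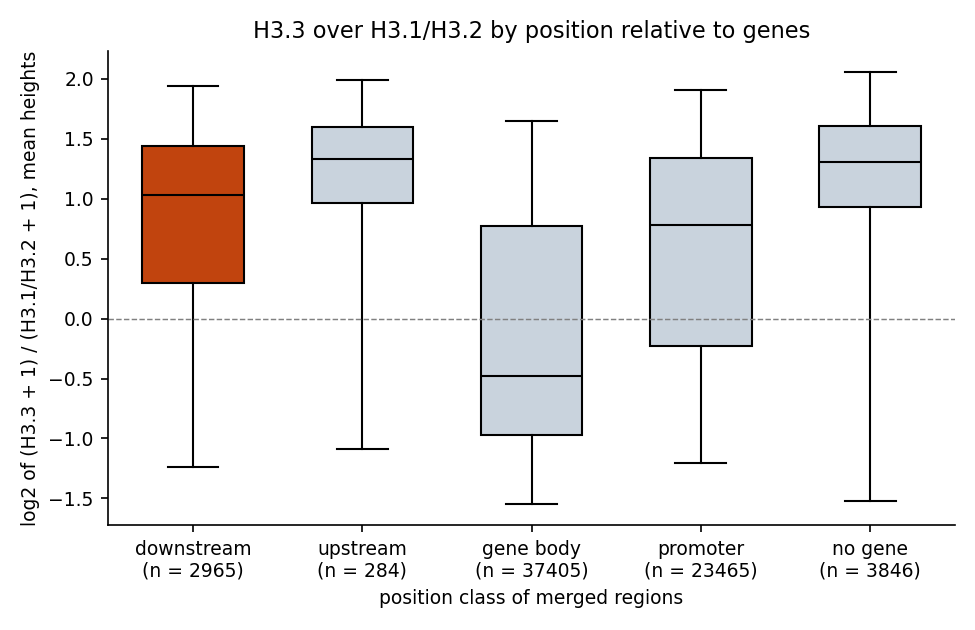
Log2 ratio of H3.3 to H3.1/H3.2 (pseudocount 1, vertical axis) by position class; boxes span the quartiles, lines mark medians and whiskers the 5th and 95th percentiles. The downstream median of 1.03 lies above that of gene bodies at -0.48 and below those of upstream regions and regions without a gene.

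Against promoters the order depended on how many genes a region was assigned to. Promoter regions had median heights of 9.37 for H3.3 against 5.81 for H3.1/H3.2 and a log2 ratio of 0.78, and downstream regions stood 0.25 (0.21 to 0.29) above them. With regions assigned to 1 gene the difference was -0.00 (-0.05 to 0.05), and with regions called in both ChIPs 0.02 (-0.07 to 0.08). CpG islands, stretches rich in CG pairs that mark many promoters, were counted in 313 downstream regions (10.6%), 50.8% of promoter regions and 22.4% of all regions. Downstream regions with a CpG island had median heights of 10.8 for H3.3 against 4.00 for H3.1/H3.2, and those without had 8.64 for H3.3 against 4.23 for H3.1/H3.2. The log2 ratio was 0.29 higher (0.17 to 0.37) with an island.

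Distance past the gene's end went with the H3.1/H3.2 height and hardly with that of H3.3. RefSeq gene ends were matched for 2201 downstream regions, of which 2047 had their centre past the end, at a median distance of 3578.5 bases. In the first 1000 bases the median heights were 8.64 for H3.3 against 5.93 for H3.1/H3.2. At 3000 to 4000 bases they were 8.72 for H3.3 against 4.18 for H3.1/H3.2, and at 8000 to 10000 bases 8.73 for H3.3 against 3.50 for H3.1/H3.2. The H3.1/H3.2 height thus fell by bins from 5.93, 5.46, 4.79 and 4.18 to 3.79, 3.79 and 3.50, with 3.86 beyond 10000 bases, while H3.3 stayed between 8.59 and 9.16 up to 10000 bases and was 9.68 beyond. The median log2 ratio was 0.63 in the first 1000 bases, 0.83 at 2000 to 3000 bases, 1.09 at 4000 to 6000 bases and 1.20 at 8000 to 10000 bases. The near 1024 regions had a median log2 ratio of 0.75 and the far 1023 of 1.13, a difference of -0.38 (-0.47 to -0.30), which was -0.05 (-0.31 to 0.12) among regions called in both ChIPs. Of the 349 regions in the first 1000 bases, only 85 overlapped no RefSeq gene span, with a median log2 ratio of 0.53 (0.31 to 0.83). Among all regions without such overlap, near minus far was -0.33 (-0.44 to -0.24). Regions centred beyond 10000 bases were longer than those nearer, with a median of 2599 bases. In the 154 regions whose centre lay before the RefSeq end, the median log2 ratio was -0.33 (-0.56 to 0.33).

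**Figure D3:**
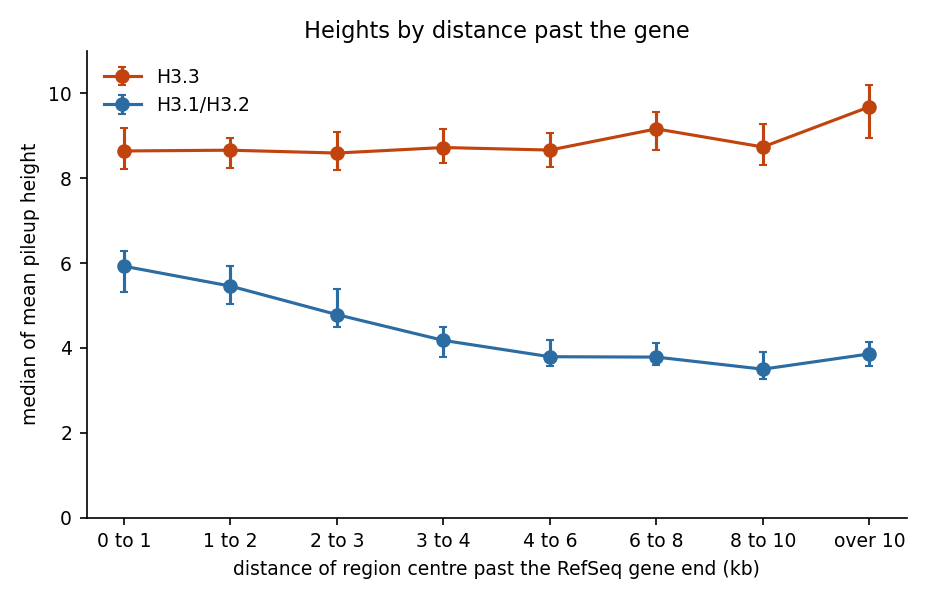
Median of the mean pileup height of H3.3 and H3.1/H3.2 (vertical axis) by distance of the region centre past the RefSeq gene end (horizontal axis, kb), with exact order-statistic intervals over regions. H3.1/H3.2 declines from 5.93 to 3.50 between the first and the seventh bin while H3.3 stays between 8.59 and 9.16.

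The layout of the neighbouring genes also went with the H3.1/H3.2 height. Where the ends of 2 genes on opposite strands faced the same region (241 regions), the medians were 8.89 for H3.3 against 5.44 for H3.1/H3.2, with a log2 ratio of 0.71 (0.55 to 0.87). Behind 1 gene (1998 regions) they were 8.77 for H3.3 against 3.96 for H3.1/H3.2, with a log2 ratio of 1.08 (1.04 to 1.12). Regions that lay behind at least 1 gene and upstream of another (329) had a log2 ratio of 1.08, and those behind 2 genes on the same strand (56) of 1.03. The region assigned to the most genes, 24, lay at the end of the PCDHG cluster of clustered protocadherins at chr5:141511600-141518199, with heights of 11.4 for H3.3 against 9.80 for H3.1/H3.2. Overlap with any RefSeq gene span was found in 1052 regions (35.5%), whose median log2 ratio was 0.81 (0.72 to 0.90), against 1.12 (1.08 to 1.16) in the 1913 others.

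The ratio also differed between kinds of gene, and each count of regions past 2-fold is set against 57.9% higher and 10.1% lower over all downstream regions. The gene lists used here and below were chosen with earlier results of these data known, so their shares are descriptions and no tests. Behind a single lncRNA gene (313 regions) the medians were 9.45 for H3.3 against 3.17 for H3.1/H3.2, with a log2 ratio of 1.40 (1.32 to 1.46). Behind a single protein-coding gene (1606 regions) they were 8.52 for H3.3 against 4.50 for H3.1/H3.2, with a log2 ratio of 0.91 (0.87 to 0.97). Regions behind LINC genes numbered 76, with a median log2 ratio of 1.35, and 64 of them were at least 2-fold higher in H3.3 (84.2%, 74.0 to 91.6) and 4 at least 2-fold lower. Regions behind uncharacterised genes with a LOC symbol (634) had a median of 1.33, with 512 at least 2-fold higher (80.8%, 77.5 to 83.8) and 35 lower. Behind transfer RNA genes, which RNA polymerase III transcribes, there were 5 regions, with a median of -0.54, of which 0 were at least 2-fold higher (interval up to 52.2%) and 2 lower. Behind small nucleolar and nuclear RNA genes, 16 of 32 regions were at least 2-fold higher (50.0%, 31.9 to 68.1) and 0 lower, with a median of 0.85. Antisense genes had 30 regions (median 1.16, 21 at least 2-fold higher and 1 lower), ribosomal protein genes 17 (0.93, 11 and 0) and solute carrier genes 42 (1.02, 24 and 0). For the small nucleolar, antisense, ribosomal protein and solute carrier genes the interval of the share at least 2-fold higher included 57.9%. Olfactory receptor genes had 3 (median 0.60, 1 and 1), and the region behind the replication-dependent histone gene HIST1H2BD had a ratio of 1.60.

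The clearest departure was behind zinc finger genes, which encode mostly DNA-binding repressors. They were taken by symbol (ZNF, ZFP, ZBTB, ZSCAN or ZKSCAN), which also took in names such as ZNF436-AS1. There the medians changed places, with heights of 3.22 (2.86 to 3.77) for H3.3 against 7.80 (7.13 to 8.11) for H3.1/H3.2 over 142 regions of 92 genes. H3.3 was at least 2-fold lower in 85 of these regions (59.9%) and at least 2-fold higher in 20, against 10.1% lower and 57.9% higher over all downstream regions. Not every region followed. Calls were in H3.1/H3.2 alone for 98, in both ChIPs for 12 and in H3.3 alone for 32, including regions behind ZBTB8A, ZBTB7C and ZBTB3. The median log2 ratio was -1.12 (-1.25 to -0.87), against 1.06 (1.03 to 1.09) in the 2823 downstream regions of other genes. Zinc finger genes held 4.79% of the downstream regions and 28.4% of the 299 that were at least 2-fold lower in H3.3. With 1 value per gene the median was -0.86 (-1.11 to -0.57). In regions assigned to 1 gene it was -1.33, and in the 12 zinc finger regions called in both ChIPs -0.04 (-0.62 to 0.34).

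Chromosome 19, where the family is densest, carried 82 of the 142 regions, with a median log2 ratio of -1.33 (-1.41 to -1.14). The 60 regions on other chromosomes had a median of -0.10 (-1.03 to 0.50), so the list's median off chromosome 19 was not distinguishable from 0. The 181 downstream regions of chromosome 19 behind other genes had a median of 1.15 (1.01 to 1.25), against 1.05 (1.02 to 1.08) over the downstream regions of other chromosomes. Over all its downstream regions chromosome 19 had the lowest median of the chromosomes analysed, 0.74, and chromosome 22 the highest, 1.22. Zinc finger regions were low in H3.3 at both distances, with median log2 ratios of -0.79 (-1.15 to -0.26) in 48 near regions and -1.14 (-1.29 to -0.13) in 37 far ones. A further 33 had their centre before the RefSeq gene end, with a median of -1.39 (-1.50 to -1.29).

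Some zinc finger genes had low H3.3 over long stretches, several of which lay inside RefSeq gene spans. The longest region called in H3.1/H3.2 alone, 12399 bases at chr19:23340800-23353199, was marked downstream of ZNF91, a repressor of SVA retrotransposons. It had heights of 2.74 for H3.3 against 12.0 for H3.1/H3.2, a fold of 0.228 (0.191 to 0.273), and lay inside the longer RefSeq span of that gene. Behind ZNF564, a region of 9599 bases had heights of 3.2 for H3.3 against 11.2 for H3.1/H3.2, a fold of 0.286 (0.234 to 0.346), and it held a CpG island. Behind ZNF430, 5 regions in a row over chr19:21059800-21070599 had H3.3 heights of 1.17 to 3.77 and H3.1/H3.2 heights of 5.88 to 12.8. The 6 regions marked downstream of ZNF701 had H3.3 heights of 2.36 to 3.19 and H3.1/H3.2 heights of 8.16 to 9.48, and the centres of all 6 lay before the RefSeq end of that gene, inside its longer RefSeq span. Behind ZNF721 on chromosome 4, 5 regions past the RefSeq end, each overlapping a RefSeq gene span, had H3.3 heights of 2.01 to 3.18 and H3.1/H3.2 heights of 7.80 to 8.84. H3.1/H3.2 alone was called in every one of these regions. ZNF430, ZNF701 and ZNF721 were singled out after their values were seen, as genes with 5 or more downstream regions.

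Regions behind genes of epithelial and mesenchymal identity, signalling and housekeeping had H3.3 above H3.1/H3.2 in most cases, as downstream regions did in general. Over 6 lists of genes named by symbol, 85 regions had median heights of 9.75 for H3.3 against 3.73 for H3.1/H3.2, and 65 were at least 2-fold higher (76.5%, 66.0 to 85.0) and 2 at least 2-fold lower (2.35%). The shares over all downstream regions were 57.9% higher and 10.1% lower, and over all merged regions 36.0% and 22.4%. Their median log2 ratio was 1.26 (1.09 to 1.36), against 1.03 over all downstream regions. Several of these regions were also marked downstream of a further gene. Examples are FOXC1 with GMDS, PKP3 with SIGIRR, BMPR1A with MMRN2 and HSPD1 with COQ10B. The medians of the 6 lists ran from 0.91 to 1.35. Genes typical of other tissues had the highest, over 7 regions, with an interval of -0.63 to 1.83 that included the medians of the other lists.

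**Figure D4:**
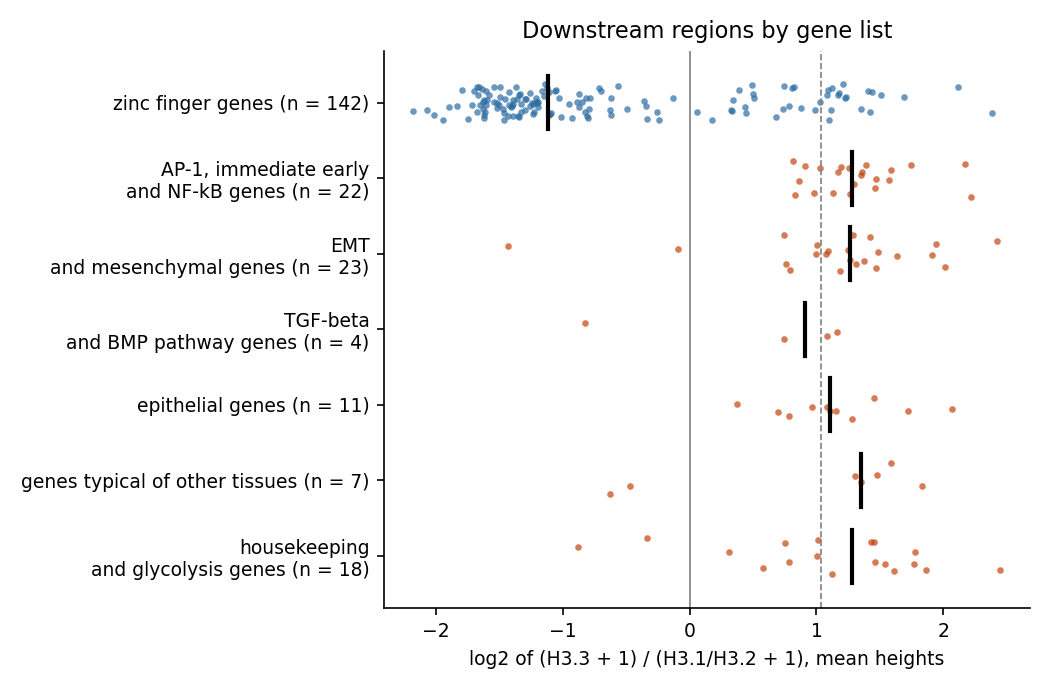
Log2 ratio of H3.3 to H3.1/H3.2 (pseudocount 1, horizontal axis) of each downstream region of the genes in 7 lists; black bars mark medians, the dashed line the median of all downstream regions and the solid line equal heights. Zinc finger regions centre on -1.12, while the medians of the other lists lie between 0.91 and 1.35.

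Genes of the mesenchymal state, which is linked to invasion, had 23 regions behind 13 of 60 listed genes, 18 at least 2-fold higher in H3.3 and 1 lower, with a median log2 ratio of 1.27. The share higher was 78.3% (56.3 to 92.5), an interval that included the 57.9% of all downstream regions. Regions of 5999 and 2799 bases were marked downstream of both SGCA and COL1A1, which encodes a chain of type I collagen. They had H3.3 heights of 17.5 and 11.6 and H3.1/H3.2 heights of 3.59 and 2.27. Behind MMP14, a membrane-bound collagenase, the region at chr14:22847600-22853999 had heights of 20.2 for H3.3 against 4.63 for H3.1/H3.2, a fold of 4.36 (3.61 to 5.32), and the next region had 8.09 for H3.3 against 4.43 for H3.1/H3.2. Behind both RNF216 and FSCN1, which bundles actin in invasive protrusions, the folds of 3 regions ran from 1.79 to 2.73. Behind SNAI1, a transcriptional repressor of E-cadherin, heights were 12.8 for H3.3 against 4.81 for H3.1/H3.2. FOXC1, a forkhead transcription factor, stood apart in this list, with H3.3 heights of 3.50 and 8.66 and H3.1/H3.2 heights of 11.1 and 9.31 in its 2 regions, both called in H3.1/H3.2 alone. The first of these had a fold of 0.315 (0.143 to 0.583), and the second, with a fold of 0.93 (0.743 to 1.15), did not differ beyond counting error.

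Epithelial genes had 11 regions behind 8 of 50 genes, with a median log2 ratio of 1.11, and 8 were at least 2-fold higher and 0 lower. The share higher, 72.7% (39.0 to 94.0), had an interval that included 57.9%. Behind KRT8, a keratin of simple epithelia, heights were 13.8 for H3.3 against 4.43 for H3.1/H3.2, a fold of 3.13 (2.42 to 4.08), and behind KRT7 9.27 for H3.3 against 3.76 for H3.1/H3.2. Behind PKP3, a desmosomal plakophilin, the region was called in both ChIPs, with heights of 17.0 for H3.3 against 10.1 for H3.1/H3.2. Genes of TGF-beta and BMP signalling had 4 regions, 2 at least 2-fold higher (50.0%, 6.76 to 93.2) and 0 lower, and behind BMPR1A, a BMP receptor, heights were 5.63 for H3.3 against 10.7 for H3.1/H3.2 in a region inside the longer RefSeq span.

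Immediate early, AP-1 and NF-kB genes, which respond fast to growth factors and cytokines, had 22 regions behind 12 of 50 genes. Of these, 20 were at least 2-fold higher in H3.3 (90.9%, 70.8 to 98.9, against 57.9% over all downstream regions) and 0 lower (against 10.1%), with a median log2 ratio of 1.28. Several of the 22 regions lay behind the same gene, and the interval takes regions as independent, so it may be too narrow. The list was also chosen with earlier results of these data known, so the share is a description and no test. Behind KLF2, a transcription factor of the Krüppel family, the region at chr19:16336200-16343999 had heights of 19.6 for H3.3 against 3.58 for H3.1/H3.2, a fold of 5.47 (4.50 to 6.66), and its H3.3 peak of 64 was among the 4 highest of all downstream regions. Behind IER2, a region of 13799 bases had heights of 17.3 for H3.3 against 5.62 for H3.1/H3.2, and behind LIF, a cytokine of the IL-6 family, regions of 10799 and 13399 bases had folds of 4.02 and 3.38. CCL20, a chemokine, had the highest fold of the list at 7.56 (4.26 to 13.5), with heights of 9.45 for H3.3 against 1.25 for H3.1/H3.2. Behind FOSL2, an AP-1 subunit, 3 regions had folds of 2.26 to 3.01, and behind DUSP5, a phosphatase of ERK, 4 regions had folds of 2.22 to 3.49. The lowest folds were those of SPRY4, an inhibitor of growth factor signalling, at 1.87 (1.40 to 2.53) and of a second KLF2 region at 1.88.

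Housekeeping and glycolysis genes had 18 regions behind 12 of 62 genes, 12 at least 2-fold higher in H3.3 and 1 lower, with a median log2 ratio of 1.28. The share higher was 66.7% (41 to 86.7), near the 57.9% of all downstream regions. At TUBA1C, an alpha-tubulin gene, a region whose centre lay just before the RefSeq gene end (position -200.5 relative to it) had heights of 17.9 for H3.3 against 2.46 for H3.1/H3.2, a fold of 7.28 (5.25 to 10.6). The next region, centred 2799.5 bases past that end, had 12.8 for H3.3 against 2.78 for H3.1/H3.2, a fold of 4.59 (2.94 to 7.34). Behind the chaperone gene HSP90AA1, 2 regions had folds of 2.46 and 3.1. Behind HSPD1, the mitochondrial chaperonin, the farther region had heights of 4.36 for H3.3 against 8.86 for H3.1/H3.2, a fold of 0.492 (0.298 to 0.792), and the nearer had 6.02 for H3.3 against 4.67 for H3.1/H3.2. Genes typical of other tissues had 7 regions behind 5 of 72 genes, with H3.3 at least 2-fold higher in 5 (71.4%, 29.0 to 96.3). Behind SNAP25, a neuronal SNARE protein gene, heights were 11.4 for H3.3 against 2.50 for H3.1/H3.2. A region marked downstream of both USP39 and SFTPB, a lung surfactant protein gene, had 5.54 for H3.3 against 9.12 for H3.1/H3.2.

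MicroRNA genes had 82 downstream regions, 60 of them at least 2-fold higher in H3.3 (73.2%, 62.2 to 82.4, against 57.9% over all downstream regions) and 3 lower (3.66%, against 10.1%), with a median log2 ratio of 1.14 (1.01 to 1.28). The mature sequences are shown for 2 hairpins that RefSeq places inside downstream regions and for a cluster chosen after its values were seen, with the seed (bases 2 to 8) in capitals.
hsa-miR-12118, in the region past STC2: cAAGGAGGagcggggauuag
hsa-miR-9898, in the region past KRT8: uACUUACCuguccccuacccca
hsa-miR-424-5p, of the cluster: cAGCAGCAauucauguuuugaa
hsa-miR-503-5p, of the cluster: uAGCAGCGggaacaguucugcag

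The seeds of hsa-miR-424-5p and hsa-miR-503-5p share all but their last letter. The region behind their cluster, chrX:134535600-134537399, was assigned to MIR450B, MIR542, MIR503, MIR424 and further genes of the cluster and had heights of 10.5 for H3.3 against 1.24 for H3.1/H3.2, a fold of 8.48 (4.35 to 18.2). The region past STC2, which encodes a secreted stanniocalcin and holds the hsa-miR-12118 hairpin, had heights of 13.5 for H3.3 against 3.31 for H3.1/H3.2, a fold of 4.08 (2.86 to 6.02). The region marked past KRT8 overlapped the RefSeq span of that gene, and the hsa-miR-9898 hairpin lay inside this span. Heights say nothing of how much of these RNAs was made.

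For genes with regions in several places, the downstream region was compared with the body and the promoter of the same gene. In 1516 genes with both, the downstream region nearest the end had a log2 ratio 0.38 (0.33 to 0.44) above the median of the body regions, and it was the higher of the pair in 1088 genes (71.8%). Some genes shared a region, so these genes rested on 1364 distinct downstream regions, while the interval takes genes as independent. Median heights were 8.62 for H3.3 against 5.28 for H3.1/H3.2 downstream, against 7.49 for H3.3 against 7.33 for H3.1/H3.2 in the body. The body region nearest the gene's end, in place of the median, gave 0.31 (0.27 to 0.35). Against the promoter region nearest the start, in 2194 genes with 1801 distinct downstream regions, the difference was -0.01 (-0.05 to 0.04). That value does not show that both places were alike in each gene, and in regions without a CpG island the difference was 0.13 (0.07 to 0.21). In 1298 genes with all 3 places, the median H3.3 height was 8.57 downstream, 7.29 in the body and 10.1 at the promoter, and the median H3.1/H3.2 height was 5.50 downstream, 7.58 in the body and 6.04 at the promoter.

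The difference to the body was larger where the body favoured H3.1/H3.2. In 803 genes with a body log2 ratio below 0, the median was 0.18 downstream, against -0.75 in the body, and the median difference was 0.76 (0.68 to 0.87). In 713 genes with a body ratio above 0, it was 1.16 downstream, against 1.03 in the body, with a difference of 0.12 (0.06 to 0.18). Splitting genes on the body value sets part of this contrast. H3.3 was the higher variant downstream and the lower in the body in 432 genes, and the reverse held in 48. The largest gaps in favour of the downstream region were those of ICE1, a subunit of the little elongation complex, with a log2 ratio of 2.30 downstream against -1.21 in the body, and of TSTD3, C11orf30 and PTDSS1. For ICE1 the downstream heights were 12.1 for H3.3 against 1.67 for H3.1/H3.2, and the body medians 2.98 for H3.3 against 7.92 for H3.1/H3.2. The largest gaps the other way were those of KAT2B, a histone acetyltransferase gene, with -1.22 downstream against 1.58 in the body, and of TBX1, ZSCAN12 and ZNF443. Over 69 zinc finger genes the medians were low in both places, at -1.13 downstream and -1.29 in the body, with a median difference of 0.09 (-0.01 to 0.34). Single genes departed from this, such as ZSCAN12 and ZNF443 with body ratios of 1.44 and 1.29.

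**Figure D5:**
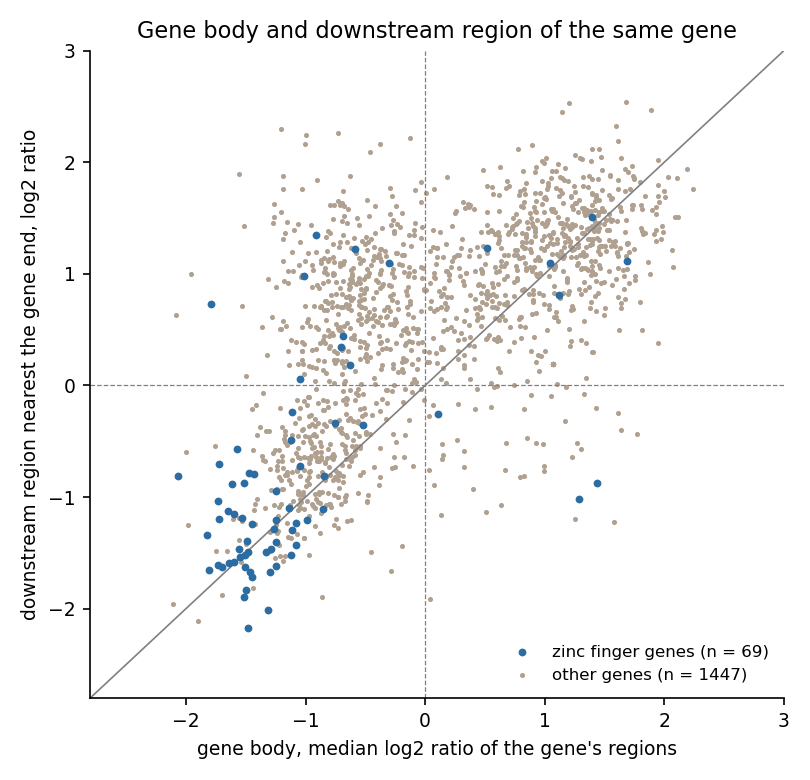
Log2 ratio of the downstream region nearest the gene end (vertical axis) against the median log2 ratio of the same gene's body regions (horizontal axis) for 1516 genes; the solid line marks equal values and dashed lines 0. Most points lie above the solid line (1088 genes), and the medians of the 69 zinc finger genes are below 0 on both axes.

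Neighbouring regions behind the same gene tended to have the same sign. Of 763 genes with 2 or more downstream regions, 530 had every region above 0, 125 every region below 0 and 108 had both signs. The second region was below 0 in 137 of 197 genes whose first was below 0 (69.5%) and in 29 of 566 whose first was above 0 (5.12%), against 21.7% of all downstream regions. Behind CRELD2 the folds of 5 regions ran from 3.2 to 5.88, and behind FBLIM1, an adaptor of cell adhesions, those of 5 regions from 2.24 to 4.59. Behind HBEGF, an EGF receptor ligand, the 5 regions were mixed, with folds of 0.550 to 3.53. These 3 genes too were chosen after their values were seen, as having 5 regions each.

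The highest folds rested on few H3.1/H3.2 tags. Among regions with a larger mean height of at least 9.226, the median of that quantity, the highest folds were 12.7 in the region assigned to PPP3CA and FLJ20021 (3.56 to 57.7), 11 behind SOAT2 and 10.9 in a region marked downstream of LOC105376626 but inside its longer RefSeq span (5.16 to 28.6). Further high folds were those of SPRED2, ANXA8, WBSCR28 and SLC38A2, at 10.5, 10.1, 10.0 and 9.33. By the estimate from heights, between 1 and 7 H3.1/H3.2 tags lay in each of these regions. Where low heights are overstated, these tags are too, and the intervals of the folds are then inexact. Among the lowest folds were 0.153 in a region marked downstream of ZNF121 but inside its longer RefSeq span, and 0.155 between HSF2 and SERINC1 (0.0377 to 0.425). They were followed by LOC105373082, ZNF430, CHEK2P2, LOC105377819 and SH3RF1, at 0.172 to 0.197, and 2 to 18 H3.3 tags lay in each. The region behind CHEK2P2 had the most tags of these, with heights of 2.51 for H3.3 against 13.9 for H3.1/H3.2 and a fold of 0.180 (0.104 to 0.302).

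Long and high regions carried more tags and narrower intervals. The longest called in H3.3 alone, 18399 bases at chr11:69433600-69451999 behind LOC102724265, had heights of 15.0 for H3.3 against 4.37 for H3.1/H3.2, a fold of 3.43 (3.05 to 3.87). Next in length were regions behind LOC105373072, LOC105372839 and LOC101927479, with folds of 3.68, 4.59 and 3.21. The longest called in both ChIPs, 19999 bases between SNX33 and CSPG4, had heights of 12.9 for H3.3 against 6.89 for H3.1/H3.2, a fold of 1.87 (1.69 to 2.06), and those assigned to SRSF3, CHSY1 and LOC105369370 had folds of 1.94, 1.5 and 2.0. Besides those of zinc finger genes, the longest called in H3.1/H3.2 alone were assigned to FBXO34 and ATG14, with heights of 5.52 for H3.3 against 9.41 for H3.1/H3.2, and to STT3B and OSBPL10, with 3.74 for H3.3 against 8.76 for H3.1/H3.2. The highest H3.3 peak, 72, lay behind ZMIZ1-AS1, followed by 69 behind LOC105372839, 64 behind KLF2 and 59 behind LOC105371948. The highest H3.1/H3.2 peaks were 57 behind LOC101927663, 41 behind LOC105372731, 37 between PIAS4 and ZBTB7A and 35 behind FBXL12.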

How the data were processed

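ChIP-seq of H3.3 and of H3.1/H3.2 in LM2 cells, 1 library each beside an input DNA library that was not analysed here, gave 1 deposited table of merged regions on hg38. BWA and SICER are named, per the submitters' processing notes, without version or settings. Per the file headers, the authors gave each ChIP's mean and highest pileup signal per region, a log2 ratio of both ChIPs (H3.3 on top), CpG islands, promoters and genes. The deposited log2 ratio equalled that of the mean heights without a pseudocount to within 8.9e-16. Samples were grouped by title. Region coordinates are as deposited, with no statement on the first base's number. Of the 67969 regions, 4 outside chromosomes 1 to 22 and X were left out.

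Python 3.11.15 with numpy 2.4.6, pandas 2.3.3 and scipy 1.17.1 computed log2 ratios with a pseudocount of 1, which understates low regions, and folds as plain ratios of mean heights. Tags are height times length over 224, a divisor that returns the table's own highest tag count. That check covers the higher library of each region only. Tags of the lower library, and fold intervals built on them, may be off where low heights are overstated. Folds carry exact conditional intervals on rounded tags, medians exact order-statistic intervals for 6 or more values, and shares Clopper-Pearson intervals; differences of medians combine both widths in quadrature. Reads had no molecular identifiers, so intervals on tags cover counting error only. Intervals of medians and shares over regions take regions as independent, although several can lie behind the same gene, so they may be too narrow. The intervals were tested on simulated independent Poisson tags and normal values. These had no means over covered positions, no selection by calls and no dependence between neighbours, so the test does not cover those limits. Mean heights above 0 were never below 1, and 5 downstream regions had an H3.3 height and 17 an H3.1/H3.2 height of 1, while 3 had an H3.3 height of 0. Whole-library depth is unknown.

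Gene ends, biotypes and start windows came from RefSeq (GRCh38.p14), in which 2495 of 2780 genes downstream of which a region lay were found. A gene's strand was taken from which of its ends matched the deposited distance to the start within 200 bases. A window from 7500 bases before to 2500 after a gene's start recovered the promoter mark in 100% of 36810 regions with 1 gene. The 17 gene lists, the members and the definitions were chosen with earlier results of these data known. Genes were named by rank among regions of at least the median larger height (8 highest and 8 lowest folds), length (4 per call), peak (4 per ChIP), same-gene difference (4 each way) and membership of the symbol lists, of which examples are given; a few genes so selected are not reported here but stay in all counts and medians. Alternatives were pseudocounts of 10 and 0.1, peak heights, regions of at least 1000 bases or a height of at least 5, regions with 1 gene, without a CpG island or called in both ChIPs, weighting by length, and centring.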

Additional observations from a re-analysis of the deposited data

How the results depend on the processing

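Of 128 recomputed values, 68 stayed within the interval of the value reported (for counts, within 1.5 times) and 2 of those reported with an interval that excluded 0 turned their sign; the cause was not tested beyond what each setting removes. The turned values were downstream minus promoter regions, at -0.0029 with regions assigned to 1 gene, and downstream minus upstream regions, at 0.0899 with regions called in both ChIPs. Downstream minus own promoter, whose interval of -0.05 to 0.04 included 0, also stood above 0 with regions of at least 1000 bases, without CpG islands and with regions called in both ChIPs (values below). With a pseudocount of 10, the downstream median log2 ratio was 0.45, and downstream regions differed by -0.11 from upstream, 0.67 from gene body, 0.0724 from promoter and -0.10 from gene-free regions. With it, near minus far was -0.13, downstream minus own body 0.16, the CpG island difference 0.15, the median of the symbol lists 0.53 and that of zinc finger genes -0.44. With a pseudocount of 0.1, the median was 1.19, the differences -0.39 to upstream, 1.74 to gene body, 0.31 to promoter and -0.34 to gene-free regions, downstream minus own body 0.45, the symbol lists 1.43 and zinc finger genes -1.32. With peak heights, the median was 0.88, the differences 1.16 to gene body and 0.18 to promoter regions, downstream minus own promoter -0.0719 and zinc finger genes -0.85. With regions assigned to 1 gene, the median was 1.08, the differences 1.62 to gene body and -0.23 to gene-free regions, the share called in H3.3 alone 74.1%, downstream minus own promoter -0.0741 and zinc finger genes -1.33. With regions called in both ChIPs, the median was 0.15, the differences 0.24 to gene body, 0.0170 to promoter and -0.11 to gene-free regions, near minus far -0.0535, downstream minus own body 0.32 and own promoter 0.13, the symbol lists 0.78 and zinc finger genes -0.0351. With them, 24 regions were at least 2-fold higher and 3 at least 2-fold lower, and the shares were 8.70% and 1.09%, against 57.9% and 10.1%. Weighted by length, the median was 1.07, the differences 1.34 to gene body and 0.51 to promoter regions and the CpG island difference 0.14. With regions of at least 1000 bases, the differences were 1.44 to gene body and 0.31 to promoter regions, downstream minus own promoter 0.0379, and 175 regions were at least 2-fold lower against 299. Without CpG islands, the differences were 1.55 to gene body and 0.43 to promoter regions and downstream minus own promoter 0.13. The share called in H3.3 alone was 69.5% of bases. The body region nearest the gene end gave 0.31. Alternatives chosen after seeing the data gave, without overlap with RefSeq genes, a median of 1.12 and a share of 78.3%, without zinc finger genes a share of 74.9%, and for zinc finger genes -0.10 without chromosome 19 and -0.86 with 1 value per gene. No paired analysis was possible because each antibody has 1 library and no replicate. Depth limits short regions most, since folds of about 10 rest on 1 to 7 estimated tags of the lower library.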
